A study of Homo sapiens with 2 samples.

Results

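The genes described here build and control the actin cytoskeleton and its attachments to the plasma membrane and the extracellular matrix, MARCKS among them. They were 43 listed genes, chosen by name as actins, tropomyosins and other filament-binding proteins, non-muscle myosin II subunits, actin assembly factors, focal adhesion proteins and membrane linkers, together with the transcription factor SRF. The list was made with earlier results of these data known, so its shares beside those of all genes are descriptions only. All 43 were found among the 54261 gene symbols of the count table, and 41 of them averaged at least 1 CPM (counts relative to the size of the library), the level from which ratios were summarised. The other two were MYH10, a non-muscle myosin II heavy chain, with 1 count with si-NC and 0 with si-SRSF2, and FLNC, a filamin of muscle, with 3 counts in each library. The measurements came from RKO, a human colorectal carcinoma cell line that carries no introduced allele, which received either si-NC, the control siRNA, or si-SRSF2, an siRNA to the SR-family splicing factor SRSF2, and was harvested 2 days later. Poly(A) RNA was sequenced in 1 library per group, so the comparison had no replicate check and no test across genes was run. Both libraries came from this 1 line, and the variation between transfections is unknown.

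Actin monomers assemble into filaments that profilin, cofilin, capping protein and the Arp2/3 complex build, cut and branch, that tropomyosins coat and that myosin II pulls on. At focal adhesions, integrins are tied to these filaments through talin, vinculin, alpha-actinin and zyxin, while MARCKS, ezrin and moesin link actin to the inner face of the plasma membrane. The pool of free actin monomers controls the MRTF coactivators of SRF, and many genes of this machinery are themselves SRF targets.

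The si-NC library held 19931360 counts and the si-SRSF2 library 14512802. A count of 0 allows up to 3 counts, which were worth 0.151 and 0.207 CPM. The 43 genes took 437781 counts, 2.20% of the library, with si-NC and 323321, 2.23%, with si-SRSF2. Each of the 41 genes had at least 100 counts in either library. SRSF2, the targeted gene, had 1964 and 713 counts, or 49.9% of the control level left. Of 10 colon epithelial markers, 4 reached a mean of 1 CPM (EPCAM, KRT8, KRT18 and CDX2), with a summed level over the list of 79.4 CPM with si-NC and 97.0 with si-SRSF2. Most of that difference was in KRT8, with 27.4 and 42.6 CPM. KRT18 had 31.7 and 32.9 CPM, EPCAM 8.98 and 10.1, and CDX2 10.6 and 10.9. The defining markers KRT20, CDX1 and LGALS4 had 0 counts in both libraries, KRT19 and VIL1 had 1 in each, and CDH1 had 10 and 6. Of 10 fibroblast and smooth muscle markers 1 reached a mean of 1 CPM, ACTA2 with 24 and 41 counts, with summed levels of 3.26 and 4.82 CPM and DES, MYH11 and DCN at 0. Of 8 leukocyte and endothelial markers 1 did so, CD68, a lysosomal protein that other cells also make, with 15206 and 14256 counts, which made up nearly all of the summed 763 and 982 CPM of the list. The other 7 had at most 2 counts each, and CD3E, LYZ and PECAM1 were at 0.

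For each gene, si-SRSF2 was divided by si-NC, and the ratio expressed on the log2 scale, from CPM scaled by TMM, which sets most genes level between libraries, with 0.5 CPM added to each value. Each ratio carries a 95% Clopper-Pearson interval, which covers counting error only. The median log2 ratio over the 41 genes was -0.05, beside -0.02 over all 12620 genes averaging at least 1 CPM, and 18 of the 41 were above 0 and 23 below. At least 2-fold higher in si-SRSF2 was 1 of the 41, MARCKS, where the share of all genes was 0.848%. None was at least 2-fold lower, against 0.499% of all genes. No p was computed for either count, as each group had 1 library. At least 25% higher were 4 (MARCKS, TPM4, TPM2 and ACTB), or 9.76%, against 11.8% of all genes, and at least 20% lower were also 4 (MYL12B, PDLIM5, VCL and ARPC5), or 9.76%, against 13.3%. These shares were near or under the background of all genes. The typical size of a ratio, regardless of sign, was 0.15 (median, log2) for the 41 genes and 0.17 for all genes, and among genes averaging at least 100 CPM it was 0.134 for the 31 cytoskeletal genes and 0.126 for all 2459.

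The counts were deep enough that many small ratios stood clear of counting error. The interval lay above equality for 11 of the 41 genes, or 26.8%, against 21% of all genes, and below equality for 19, or 46.3%, against 26.7%. The 41 genes were much more abundant than other genes, with a median level of 307 CPM against 33.1, which narrows their intervals. Among the 2459 genes averaging at least 100 CPM, the interval was above equality in 737 and below in 941. Of the 31 cytoskeletal genes at that level, 7 were above and 16 below. At that level 6.45% of the cytoskeletal genes were at least 25% higher and 9.68% at least 20% lower, against 4.76% and 5.86% of all genes. In the cumulative plot the curves of these sets lie close together around 0, with MARCKS and TPM4 apart at the upper end.

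**Figure D1:**
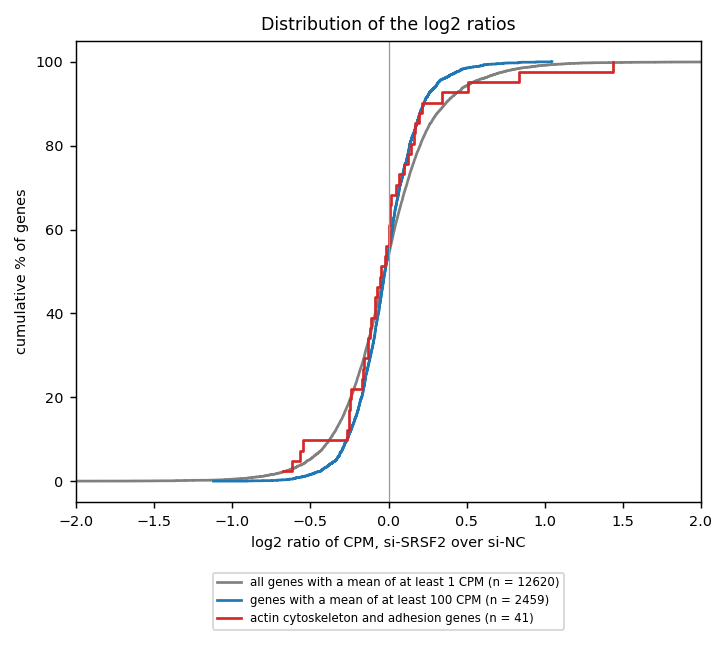
Cumulative percentage of genes (y) by log2 si-SRSF2/si-NC ratio (x) for the 41 actin cytoskeleton and adhesion genes, all 12620 genes averaging at least 1 CPM and the 2459 genes averaging at least 100 CPM, with the x axis limited to 2 log2 units either side of 0. The median is -0.05 for the cytoskeletal genes and -0.02 for all genes, and MARCKS (1.44) is the rightmost cytoskeletal gene.

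ACTB, itself a member, was the reference gene of the study's quantitative PCR. Scaling the libraries so that ACTB was equal in both, in place of TMM, moved the median of all genes to -0.36 and the median of the 41 genes to -0.39. With that scaling 3 intervals lay above equality (MARCKS, TPM4 and TPM2), against 3.22% of all genes, and 36 below, against 70.5%. A positive log2 ratio under 0.34, the ratio of ACTB itself, is therefore positive against the bulk of genes and negative against ACTB.

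**Figure D2:**
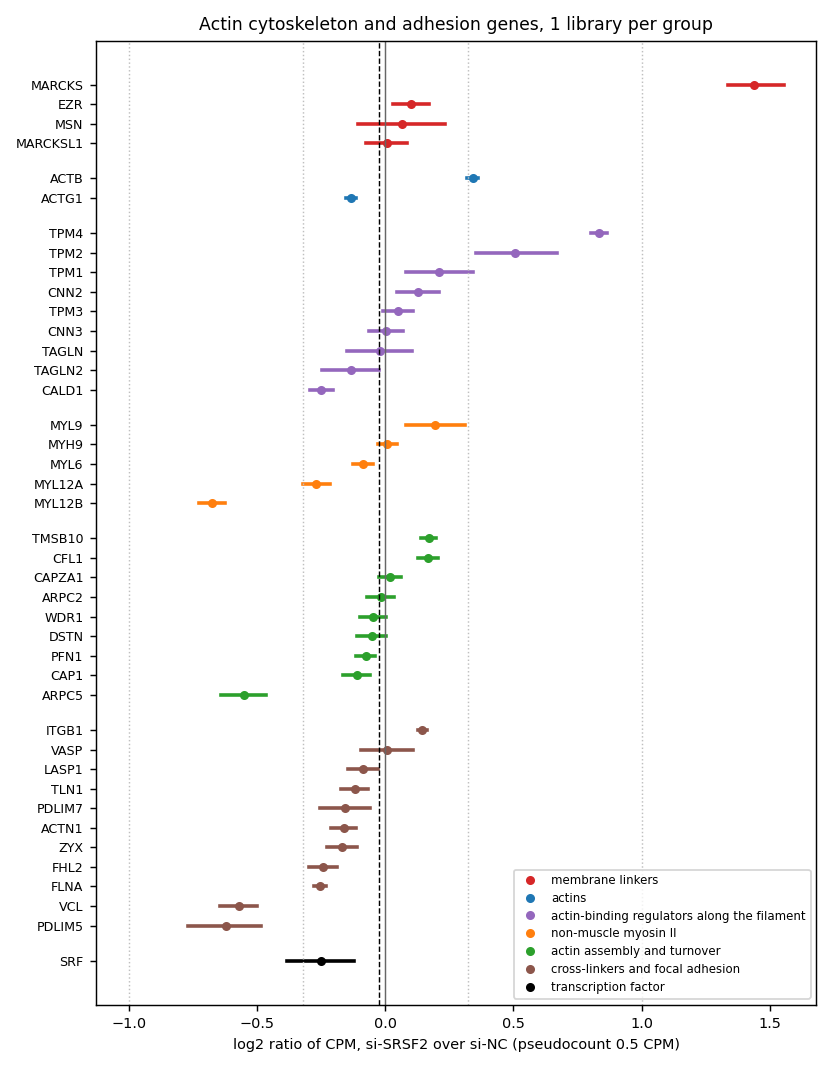
Log2 ratio of CPM in si-SRSF2 to si-NC (x, pseudocount 0.5 CPM) for the 41 genes by role (y), with points for the ratio, bars for the 95% Clopper-Pearson interval (counting error only), a dashed line at the median of all genes (-0.02) and dotted lines at 25% higher, 20% lower and 2-fold either way. MARCKS is alone past 2-fold (1.44), and 11 intervals lie above 0 and 19 below with TMM scaling (3 and 36 when scaled to equal ACTB).

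The membrane linkers held the largest difference. MARCKS binds the inner leaflet of the plasma membrane, holds phosphoinositide lipids there, cross-links actin, and leaves the membrane when protein kinase C phosphorylates it or calmodulin binds it. The gene (ENSG00000277443.3) is on the plus strand of chromosome 6, at 113857345 to 113863475 of GRCh38. It had 1041 counts with si-NC and 2065 with si-SRSF2, or 52.2 and 142 CPM. The si-SRSF2 library was the high one although it had fewer counts in all. The log2 ratio was 1.44 (95% interval 1.34 to 1.55), a 2.72-fold higher level in si-SRSF2. Among the 10492 genes averaging at least 5 CPM, this was the rise of rank 5. No other gene of the count table overlaps its exons, and genes outside that table were not searched. None of the 100-base stretches of its canonical transcript occurs in another gene's canonical transcript.

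The other membrane linkers were near 0. MARCKSL1, the smaller paralogue of MARCKS, had 2904 and 2123 counts and a ratio of 0.01 (-0.08 to 0.09), whose interval includes equality. MARCKS thus went from 26.4% (95% Wilson interval 25.0% to 27.8%) of the counts of the pair to 49.3% (47.8% to 50.8%), a share that needs no scaling between libraries. Ezrin (EZR), which ties filaments to membrane proteins in microvilli, had a ratio of 0.10 (0.03 to 0.17). Moesin (MSN), its close relative, had 663 and 505 counts and a ratio of 0.06 (-0.11 to 0.23). All 4 ratios of the group were above 0, with a median of 0.08 (-0.26 when scaled to equal ACTB). EZR took 84.7% and 85.0% of the counts of the ezrin, radixin and moesin family, and radixin (RDX) had 2 counts in each library.

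The kinases, calmodulins and lipid kinases that act on MARCKS or its lipid were represented by 13 listed genes, of which 11 averaged at least 1 CPM. None of the 11 was at least 25% higher or 20% lower, against 11.8% and 13.3% of all genes. The median ratio was 0.06 (-0.28 when scaled to equal ACTB). The ratios ran from -0.20 (-0.28 to -0.13) for PRKCI, an atypical protein kinase C, to 0.24 (0.09 to 0.38) for PIP5K1C, which makes the lipid that MARCKS holds. The protein kinase C genes PRKCB and PRKCH had 0 counts in both libraries. Of 20 other membrane linkers and membrane skeleton genes, 15 passed the level, with 9 above 0 and 6 below and a median of 0.05 (-0.29 when scaled to equal ACTB). The highest was PODXL, a sialomucin that binds ezrin through adaptors, with 3106 and 3345 counts and a ratio of 0.56 (0.49 to 0.64).

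**Figure D3:**
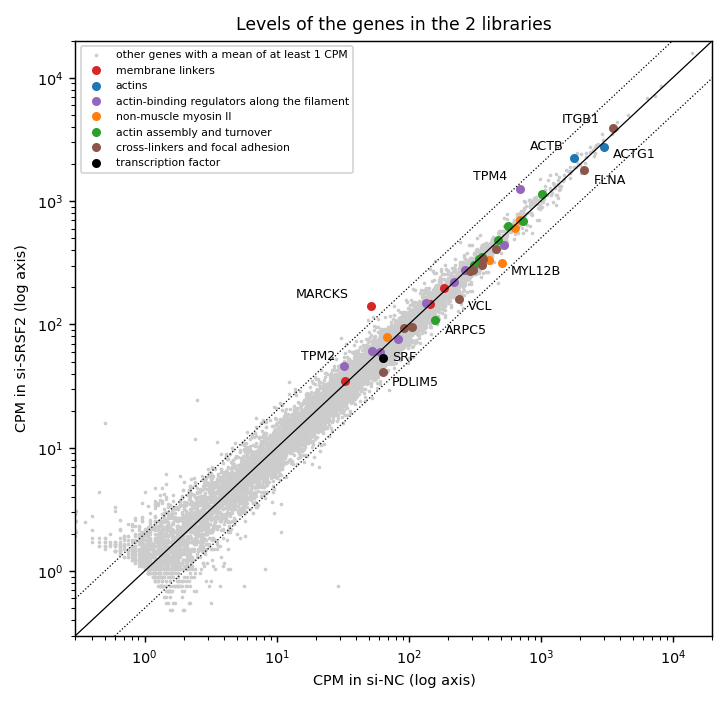
CPM in si-NC (x, log axis) and si-SRSF2 (y, log axis) for every gene averaging at least 1 CPM (grey, values under 0.3 CPM drawn at 0.3) and the 41 actin cytoskeleton and adhesion genes coloured by role, with lines at equality and at 2-fold in either direction (dotted). MARCKS (52.2 and 142 CPM) is the 1 coloured point above the upper 2-fold line, and none is under the lower.

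The pair of cytoplasmic actins moved in opposite directions. ACTB, which encodes beta-actin (ENSG00000075624.17, chromosome 7, 5526409 to 5563902, minus strand), had 35464 counts with si-NC and 32718 with si-SRSF2, or 1779 and 2254 CPM. ACTG1, which encodes gamma-actin (ENSG00000184009.13, chromosome 17, 81509413 to 81523847, minus strand), had 60301 and 40016 counts, or 3026 and 2757 CPM. ACTG1 was the more abundant in both libraries. The log2 ratio was 0.34 (0.32 to 0.36) for ACTB and -0.13 (-0.15 to -0.12) for ACTG1. As a share of the actin counts, ACTB went from 37.0% (36.7% to 37.3%) to 45.0% (44.6% to 45.3%), with no overlap of the intervals. The summed actin level differed little, with a log2 ratio of 0.06 (0.05 to 0.07), which is negative when scaled to equal ACTB. The canonical transcripts shared almost no 100-base stretch with those of other genes, 0.175% for ACTB (with the pseudogene ACTBP2) and none for ACTG1.

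The proteins that lie along the filament were led by the tropomyosins, which set how far other proteins can reach actin. TPM4 (ENSG00000167460.17, chromosome 19, 16067021 to 16103002, plus strand) had 14010 counts with si-NC and 18187 with si-SRSF2, or 703 and 1253 CPM. Its log2 ratio was 0.83 (0.80 to 0.87), or 1.78-fold, rank 63 among rises of genes averaging at least 5 CPM. TPM2 (ENSG00000198467.16, chromosome 9, 35681992 to 35690056, minus strand) had 646 and 671 counts, or 32.4 and 46.2 CPM, and a ratio of 0.51 (0.35 to 0.67). Both stayed above equality when the libraries were scaled to equal ACTB, at 0.49 and 0.17. TPM1 (ENSG00000140416.25, chromosome 15, 63042620 to 63071915, plus strand) had 1052 and 888 counts, or 52.8 and 61.2 CPM, and a ratio of 0.21 (0.08 to 0.34), which turned to -0.13 with ACTB scaling. TPM3, on chromosome 1, had 5315 and 4007 counts and a ratio of 0.05 (-0.01 to 0.11).

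All 4 tropomyosins were above 0 with TMM scaling, and those other than TPM4 and TPM2 below it when scaled to equal ACTB. In the summed counts of the family, TPM4 went from 66.6% (66.0% to 67.3%) to 76.6% (76.0% to 77.1%) and TPM3 from 25.3% to 16.9%. The summed family had 21023 counts with si-NC and 23753 with si-SRSF2, a log2 ratio of 0.63 (0.61 to 0.66). For TPM4, 2.95% of its 100-base stretches occur in pseudogenes.

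The other filament-binding genes differed less. Calponins and transgelins are small proteins that bundle and stabilise filaments. CNN2 had a ratio of 0.13 (0.04 to 0.21) and CNN3 of 0.00 (-0.06 to 0.07). TAGLN, on chromosome 11, had 1211 and 869 counts and a ratio of -0.02 (-0.15 to 0.11), and TAGLN2 had a ratio of -0.13 (-0.25 to -0.02). TAGLN overlaps PCSK7 on the opposite strand over 2233 exon bases and shares 65.1% of its 100-base stretches with another annotated gene, so its count is uncertain. CALD1, the actin- and myosin-binding protein caldesmon, was lowest of the 9 genes in the group, at -0.25 (-0.30 to -0.21). The median of the group was 0.05 (-0.29 when scaled to equal ACTB).

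The myosin II motor was represented by 6 genes. Its regulatory light chains, whose phosphorylation switches the motor on, were MYL9, MYL12A and MYL12B. MYL12B (ENSG00000118680.14, chromosome 18, 3261479 to 3278461, plus strand) had 10129 counts with si-NC and 4615 with si-SRSF2, or 508 and 318 CPM. With a ratio of -0.68 (-0.73 to -0.63) it was lowest of the 41 genes, at 62.6% of the control level and rank 126 among falls of genes averaging at least 5 CPM. Its neighbour on the same strand, MYL12A (ENSG00000101608.13, 3247481 to 3256236), had 8032 and 4856 counts, or 403 and 335 CPM, and a ratio of -0.27 (-0.32 to -0.22). MYL9, the form prominent in smooth muscle, went the other way against the bulk of genes, with 1378 and 1150 counts and a ratio of 0.20 (0.08 to 0.31), which is negative when scaled to equal ACTB.

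MYL12B therefore went from 51.8% (51.1% to 52.5%) of regulatory light chain counts to 43.5% (42.5% to 44.4%), and MYL9 went from 7.05% to 10.8%. The summed light chains had a ratio of -0.42 (-0.46 to -0.39). MYL12A and MYL12B encode near-identical proteins, but no 100-base stretch of either canonical transcript occurs in the canonical transcript of another gene. The listed pseudogene symbols of MYL12B had 20 and 15 counts, and that of MYL12A had 1 and 0. MYH9, the heavy chain of non-muscle myosin IIA, had 13933 and 10202 counts and a ratio of 0.01 (-0.03 to 0.04), and MYL6, the essential light chain, a ratio of -0.09 (-0.13 to -0.05). MYL6 overlaps SMARCC2 on the opposite strand over 719 exon bases.

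**Figure D4:**
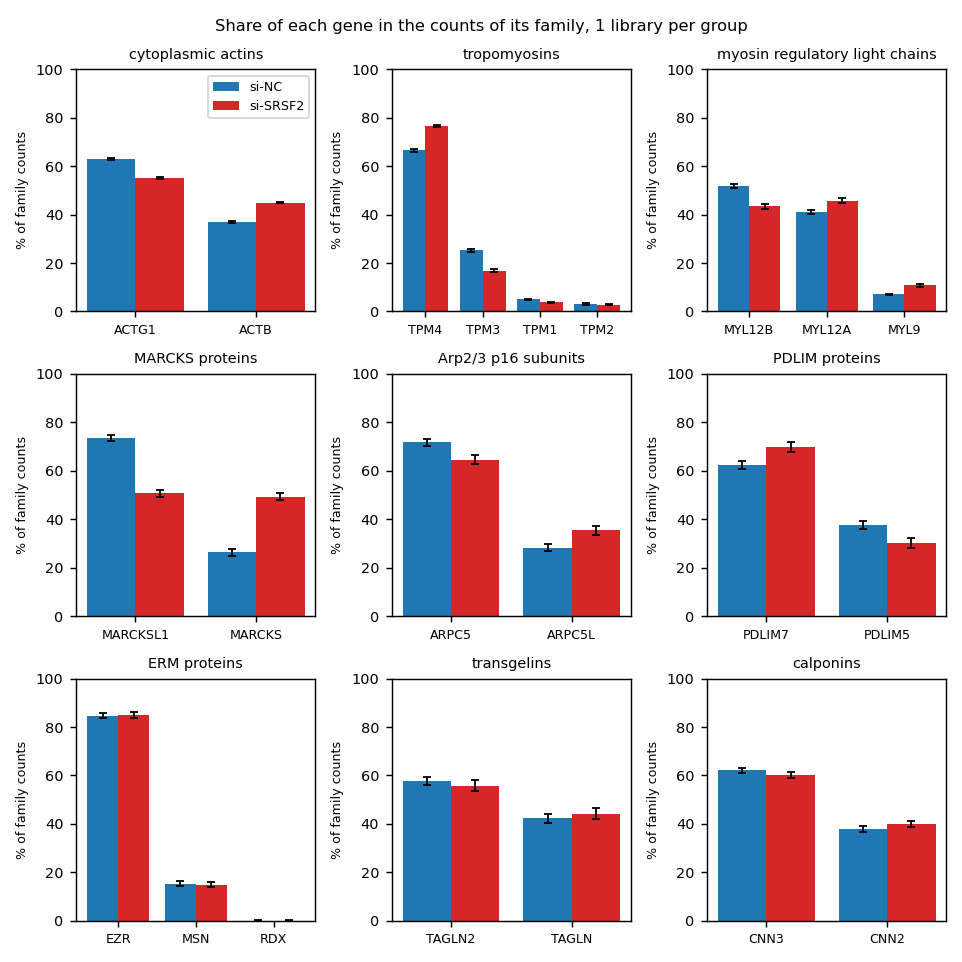
Share of each gene in the summed counts of its family (y, percent, from 0) in si-NC and si-SRSF2, with 95% Wilson intervals (counting error only) and 1 library per group. MARCKS (26.4% to 49.3%), TPM4 (66.6% to 76.6%) and ACTB (37.0% to 45.0%) gained share, MYL12B lost it (51.8% to 43.5%), and the share of EZR was near level (84.7% and 85.0%).

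Among the assembly and turnover factors, ARPC5 stood apart. It encodes the smallest subunit of the Arp2/3 complex, which nucleates branches (ENSG00000162704.16, chromosome 1, 183620846 to 183635783, minus strand). It had 3186 counts with si-NC and 1583 with si-SRSF2, or 160 and 109 CPM, and a ratio of -0.55 (-0.64 to -0.46). Its paralogue ARPC5L had 1254 and 869 counts, and the share of ARPC5 in the pair went from 71.8% (70.4% to 73.1%) to 64.6% (62.6% to 66.4%). Another subunit, ARPC2, had a ratio of -0.02 (-0.07 to 0.04). The remaining genes of the group were close to the bulk of genes. TMSB10, a thymosin that sequesters monomers, had a ratio of 0.17 (0.14 to 0.20), the severing protein CFL1 of 0.17 (0.13 to 0.21) and the capping subunit CAPZA1 of 0.02 (-0.03 to 0.06), all negative when scaled to equal ACTB. CFL1 overlaps MUS81 on the opposite strand over 759 exon bases and SNX32 over 357, so its count is uncertain. Below 0 were WDR1 (-0.05), DSTN (-0.05), the profilin PFN1 (-0.08) and CAP1 (-0.11), which assist severing and monomer recycling. The median of the 9 genes was -0.05.

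Of 40 further actin assembly genes, 38 passed the level, and their median was -0.03 with 16 above 0 and 22 below. At least 25% higher were 2 (5.26%, against 11.8% of all genes) and at least 20% lower 3 (7.89%, against 13.3%). The ends of the range were CTTN, cortactin, which stabilises branches (5195 and 5302 counts, ratio 0.49, 0.43 to 0.54), and GSN, the severing protein gelsolin (2032 and 1091, -0.44, -0.55 to -0.33). Further Arp2/3 subunits, singled out after their values were seen, were on both sides of 0, with ACTR2 at -0.39, ACTR3 at -0.21, ARPC1A at 0.21 and ARPC4 at 0.43. ARPC1A is negative when scaled to equal ACTB.

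The cross-linkers and focal adhesion genes were mostly lower. Of the 11 above the level (of 12), 9 had a ratio under 0 and an interval below equality, against 26.7% of all genes and 941 of the 2459 that average at least 100 CPM. The median was -0.16 (-0.50 when scaled to equal ACTB), beside -0.02 for all genes. PDLIM5, a PDZ and LIM domain scaffold that binds alpha-actinin (ENSG00000163110.15, chromosome 4, 94451857 to 94668227, plus strand), had 1267 counts with si-NC and 598 with si-SRSF2, or 63.6 and 41.2 CPM, and a ratio of -0.62 (-0.77 to -0.48). VCL, vinculin (ENSG00000035403.18, chromosome 10, 73995193 to 74121363, plus strand), which reinforces the link from talin to actin under tension, had 4772 and 2339 counts, or 239 and 161 CPM, and a ratio of -0.57 (-0.64 to -0.50). VCL overlaps AP3M1 on the opposite strand over 1109 exon bases, where AP3M1 had 1987 and 1291 counts, and the strand setting of the counting is not stated.

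The other members that were lower were so by less than 20%. FLNA, filamin A, which cross-links filaments into networks, had 42823 and 26141 counts and a ratio of -0.25 (-0.28 to -0.23), and FHL2, a LIM-only adaptor, a ratio of -0.24 (-0.30 to -0.19). Zyxin (ZYX) stood at -0.17 (-0.23 to -0.11), alpha-actinin 1 (ACTN1) at -0.16 (-0.21 to -0.12) and PDLIM7 at -0.16 (-0.26 to -0.06). Talin 1 (TLN1), which activates integrins, stood at -0.12 (-0.17 to -0.07) and the scaffold LASP1 at -0.09 (-0.15 to -0.03). VASP, which elongates filaments, had a ratio of 0.01 (-0.10 to 0.11). ITGB1, the integrin beta 1 receptor subunit, was the exception above equality, with 70057 and 56428 counts and a ratio of 0.15 (0.13 to 0.16), which is negative when scaled to equal ACTB. A pseudogene, ITGB1P1, shares 14.0% of the 100-base stretches of ITGB1, and the listed pseudogene symbol had 85 and 37 counts.

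A second list of 35 integrin and focal adhesion genes had 29 above the level, with 9 higher, 20 lower and a median of -0.13, where 6790 of all 12620 genes were lower. At least 25% higher was 1 (3.45%, against 11.8% of all genes) and at least 20% lower were 3 (10.3%, against 13.3%). The interval lay above equality for 6 of the 29 and below it for 11, against 21% and 26.7% of all genes. Among the 2459 genes averaging at least 100 CPM, it lay above in 737 and below in 941. ITGA2, the collagen receptor subunit that pairs with integrin beta 1, had the largest rise (2171 and 2191 counts, 0.47, 0.38 to 0.56). ACTN4, alpha-actinin 4, had the largest fall (192 and 43 counts, -1.55, -2.21 to -1.22), from a count far below that of ACTN1, and how its reads were assigned was not examined here. Without ACTN4 the median was -0.12.

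SRF, the transcription factor, had 1278 counts with si-NC and 781 with si-SRSF2, or 64.1 and 53.8 CPM, and a log2 ratio of -0.25 (-0.38 to -0.12). The gene (ENSG00000112658.8) is at 43171269 to 43181506 of chromosome 6, plus strand. Of 24 further genes listed as SRF or MRTF targets or as MRTF itself, 17 passed the level, with 8 above 0, 9 below and a median of -0.08, which was -0.15 over those averaging at least 5 CPM and 0.02 with no filter on low counts. Among those averaging at least 5 CPM they ran from FOS, an immediate early gene (384 and 189 counts, -0.55, -0.82 to -0.31), to CYR61, a matricellular protein (4830 and 4206 counts, 0.26, 0.20 to 0.32), negative when scaled to equal ACTB. The highest of the 17 was below that level, ACTA2, smooth muscle alpha-actin, whose 24 and 41 counts gave a ratio of 0.96 (0.47 to 2.02).

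The DNA element bound by SRF is the CArG box. It was searched for on both strands in the 250 bases upstream of the RefSeq start (GRCh38.p14), a search chosen after the values were seen. Of the 41 genes above the level, 38 had a promoter entry, and 6 of the 38 windows (15.8%) held a box, against 84 of 8967 windows (0.937%) of all genes above the level. These 6 are shown because each holds an exact match to the box (CC, 6 bases of A or T, then GG). Boxes with a mismatch, or outside the window, were not searched for. Each has 40 bases on its left, and on the right where the window allows. The box is in capitals, and each sequence is given 5' to 3' on the strand of its gene.
SRF (chr6:43171199-43171268, plus strand): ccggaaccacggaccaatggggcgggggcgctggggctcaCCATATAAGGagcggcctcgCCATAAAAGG
ACTG1 (chr17:81512844-81512933, minus strand): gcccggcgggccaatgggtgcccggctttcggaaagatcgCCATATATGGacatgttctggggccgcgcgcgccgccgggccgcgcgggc
TPM4 (chr19:16067325-16067414, plus strand): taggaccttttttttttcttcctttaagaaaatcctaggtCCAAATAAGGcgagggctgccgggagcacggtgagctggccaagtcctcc
CNN2 (chr19:1026479-1026568, plus strand): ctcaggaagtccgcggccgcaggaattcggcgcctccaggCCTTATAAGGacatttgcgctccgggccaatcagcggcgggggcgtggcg
FLNA (chrX:154374679-154374768, minus strand): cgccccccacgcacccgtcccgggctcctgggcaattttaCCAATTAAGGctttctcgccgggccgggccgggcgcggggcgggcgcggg
FHL2 (chr2:105438565-105438654, minus strand): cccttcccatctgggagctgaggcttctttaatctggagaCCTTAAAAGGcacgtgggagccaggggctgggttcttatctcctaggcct

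The genes with a box did not move as a block. Their log2 ratios ran from -0.25 for FLNA to 0.83 for TPM4, with a median of -0.19. It was -0.05 for the 32 cytoskeletal genes with no exact box in the window, which may have SRF sites elsewhere. Over all genes the median was -0.06 with a box and -0.03 over every gene with a promoter entry. The MARCKS window held no box, which says nothing of other elements or of the factor itself. ACTB, TAGLN and MYL9 were not matched to a promoter entry.

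Each siRNA can also pair with messenger RNAs through bases 2 to 8 of either strand, its seed. The strands are shown because the seed decides which 3' UTRs can be bound, with the seed in capitals, 5' to 3' and without the overhangs. The listed strand of si-SRSF2 has the same sequence as the SRSF2 transcript, from its position 769, so the opposite strand is the one that pairs with SRSF2.
si-SRSF2, opposite strand: aUCGCGACcuggauuugga
si-SRSF2, listed strand: uCCAAAUCcaggucgcgau
si-NC, opposite strand: aCGUGACAcguucgaagaa
si-NC, listed strand: uUCUUCGAacgugucacgu

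Sites complementary to these seeds were counted in the canonical 3' UTRs of 10427 genes above the level, which include all 41. The site of the strand that pairs with SRSF2, GTCGCGA, was in 27 genes (0.259%), with a median ratio of -0.16 beside -0.04 for all 10427. Of the 27, 1 was a cytoskeletal gene, TPM3, with the log2 ratio of 0.05 given above. The site of the listed si-SRSF2 strand, GATTTGG, was in 1538 genes (14.8%), with a median ratio of -0.09. Among the 41 genes it occurred in ARPC5, PDLIM5 and LASP1, the last with 3 sites and a ratio of -0.09. At least 2 sites were in 261 genes (2.50%), whose median ratio was -0.11. ARPC5 and PDLIM5 had 2 sites each, in 3' UTRs of 6686 and 4156 bases, and both were among the 4 members at least 20% lower. VCL and MYL12B, the others of the 4, had none in 2000 and 524 bases. Longer 3' UTRs have more room for such a site, and the medians were not matched for length. The search was chosen after the values were seen.
ARPC5, base 361 of the 3' UTR: taatactgagaGATTTGGtcagaatttga
ARPC5, base 965 of the 3' UTR: ggatctcaaaaGATTTGGttcagatccaa
PDLIM5, base 1932 of the 3' UTR: ttctggtatttGATTTGGtttttctcttt
PDLIM5, base 3967 of the 3' UTR: taaatgtattgGATTTGGattctcaatgt

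For si-NC, the site of the opposite strand, TGTCACG, was in 3.08% of the genes, with a median ratio of -0.05, and, among the 41, in FHL2. The site of the listed strand, TCGAAGA, was in 173 genes (1.66%), with a median ratio of -0.02, and in MARCKS alone of the 41. It is at base 24 of the 2896 bases of that 3' UTR, shown here with the site in capitals.
MARCKS, 3' UTR: ttgtgagataaTCGAAGAacttttctccc
The part of such sites in any ratio was not tested.

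Levels were compared between genes per length, as CPM per kilobase of the canonical transcript. TMSB10 was highest in both libraries, at 2226 with si-NC and 2503 with si-SRSF2. ACTG1 followed, at 1577 and 1437, and ACTB was next at 982 and 1244. ITGB1 (941 and 1041), MYL6 (908 and 855) and PFN1 (904 and 858) came after the actins. The order of ACTB and ITGB1 against MYL6 and PFN1 in si-NC rests on differences that 1 library cannot separate from the variation between cultures. At the low end were MSN (8.40 and 8.79), PDLIM5 (10.5 and 6.82), MARCKS (12.2 and 33.1) and SRF (15.2 and 12.7). MARCKS was below MARCKSL1 (94.3 and 94.6) per length in both libraries, although the share of raw counts of the pair neared equality in si-SRSF2.

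**Figure D5:**
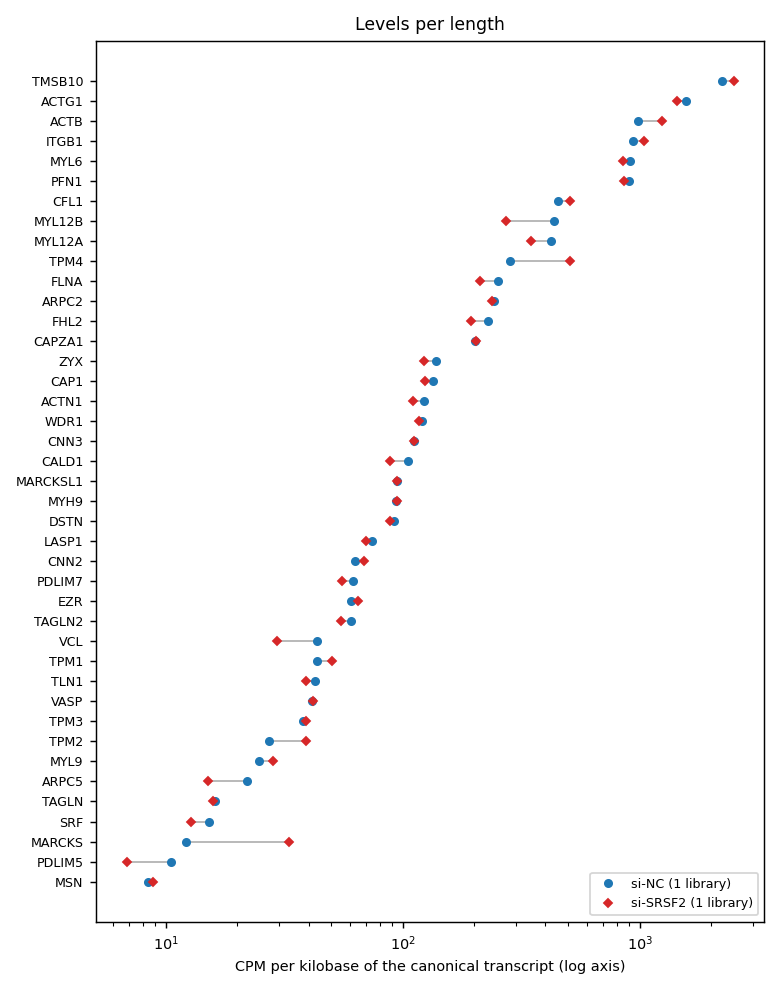
Level per length (x, CPM per kilobase of the canonical transcript, log axis) of the 41 genes in si-NC (circles) and si-SRSF2 (diamonds), ordered by the level in si-NC, with 1 library per group and no error bars. TMSB10 (2226 and 2503) is at the top and MSN (8.40 and 8.79) at the bottom, and MARCKS has the longest line (12.2 to 33.1).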

How the data were processed

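RKO cells transfected with si-NC or si-SRSF2 gave 1 RNA-seq library each. The authors trimmed adaptors and low-quality reads from the read pairs of strand-specific poly(A) libraries, aligned them to GRCh38 (HISAT2 2.0.4, per the submitters' processing notes) and used HTSeq for counting. Raw counts for each gene symbol were deposited by the authors with no normalization. The strand mode of counting is not given in the sources used here. The methods name an Ensembl annotation, while 16146 symbols begin with LOC.

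Here counts were scaled with TMM (edgeR 4.0.16, R 4.3.3) to CPM, and 0.5 CPM was added before log2 ratios. Clopper-Pearson intervals (95%, SciPy 1.17.1) were taken from the counts without the added value, and shares were given Wilson intervals. Intervals and the 3-count limit reflect counting error alone, and calculations were tested on simulated data. Genes averaging at least 1 CPM were summarised, and no test was run. Lengths, 3' UTRs and 100-base stretches shared between genes came from GENCODE release 44 canonical transcripts. Overlaps came from all exons of that release, among genes of the count table only. Promoters came from RefSeq (GRCh38.p14) and siRNA strands from the study's list of oligonucleotides. The members, their roles and all other lists were chosen with earlier results of these data known. The families and the searches for seed sites and CArG boxes were chosen after the values were seen. Given in full were MARCKS, ACTB, ACTG1, SRF and the members with the 5 largest rises and 5 largest falls, and from each other list its largest rise and fall above an average of 5 CPM. Any other gene was named after its value was seen. The results for 1 gene and 1 list are not reported here. Fold classes were 2-fold, and 25% higher or 20% lower (reciprocal folds). Alternatives were upper-quartile factors, scaling to equal ACTB, total counts, size factors of DESeq2 1.42.0, 0.1 or 2 CPM added, no filter, a minimum of 5 CPM, and library sizes without mitochondrial and the 20 most abundant genes.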

Additional observations from a re-analysis of the deposited data

How the results depend on the processing

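Of the 32 results recomputed under 9 alternatives, 254 values stayed within their interval or within 1.5 times the count, 31 moved, and 2 whose interval had excluded equality changed sign. For the median of a list, the interval used here ran from the median of its genes' lower bounds to that of their upper bounds. That range is a yardstick only and is not an interval of the median. Sign changes came to 7 when those of ratios or medians near 0 are included. DESeq2 size factors, total counts, other pseudocounts, other filters on low counts and library sizes without the most abundant genes moved none past its interval. The median of the SRF and MRTF targets depended on the filter, at -0.15 with a minimum of 5 CPM and 0.02 with none. Upper-quartile factors moved the ACTB ratio to 0.37, ACTG1 to -0.11 and the median of the actins to 0.13. Scaling to equal ACTB, which by construction lowers every ratio by nearly the same amount, moved the rest. It took MARCKS to 1.10, SRSF2 to -1.34, and the median of the cytoskeletal genes to -0.39. The medians became -0.24 for the actins, -0.29 for filament-binding regulators, -0.43 for myosin II, -0.39 for assembly and turnover, -0.50 for cross-linkers and focal adhesion, -0.26 for membrane linkers and -0.59 for SRF. In the other lists they became -0.28 for MARCKS kinases and calmodulin, -0.39 for SRF and MRTF targets, -0.37 for actin assembly, -0.47 for integrins and focal adhesion and -0.29 for membrane linkers. Of these, the actins, filament-binding regulators, both membrane linker lists and the MARCKS kinases had been above 0. With this scaling TPM1 turned to -0.13. The interval lay above equality for 3 genes and below for 36, 2 were at least 25% higher and 28 at least 20% lower (3.54% and 55.6% of all genes with this scaling), and 1 (MYL12B, -1.02) was at least 2-fold lower (2.15% of all genes). No paired analysis was possible because the groups held 1 library each, and for the same reason no replicate could be left out. The variation between transfections was not measured, and its size beside the counting error is unknown.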
